A study of Homo sapiens with 18 samples.

Results

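The amyloid precursor protein gene APP, its homologs APLP1 and APLP2 and 7 genes whose products bind or sort the APP protein were followed through 3 RNA-sequencing experiments on BE(2)-m17 cells, a human neuroblastoma line. The 7 genes are APBA1, APBA2, APBB1, APBB2, SORL1, ITM2B and BIN1. The 10 genes were picked by symbol from 57905 Ensembl genes in the counts, and each symbol matched 1 gene. All cells carried pSBbi-Hyg-APP, a Sleeping Beauty transposon that holds a codon-optimized APP. The ABCC1-overexpressing cells (ABCC1) also carried pSBbi-Pur-ABCC1(WT), which holds a codon-optimized ABCC1, and the empty vector control cells (Puro) carried the empty pSBbi-Pur. ABCC1 is a membrane transporter that exports organic anions and drugs. Each experiment, numbered RNA1, RNA2 and RNA3 in the labels, had 3 libraries of each line, 18 in all, from 14000000 cells plated per well and lysed on day 4. The study's methods describe stably transfected and antibiotic-selected lines, so that replicates are wells of a transfected line and p-values measure the spread between these libraries. They also describe a weekly plating of a well for each line, while the labels do not say whether a replicate number marks a shared week. The paper lists its repeats as cryopreserved cells and then newly transfected cells, but the labels only number the experiments. The purpose of the series was to ask which transcripts ABCC1 alters that could bear on how APP is metabolized.

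APP is a single-pass membrane protein that secretases cut into secreted fragments, among them the amyloid beta peptide. APLP1 and APLP2 share its architecture but lack the amyloid beta stretch. The short cytoplasmic tail carries a tyrosine-based sorting motif that is bound by the X11 adaptors (APBA1 and APBA2) and the Fe65 adaptors (APBB1 and APBB2). SORL1 is a sorting receptor that holds APP in the Golgi and endosomes, BIN1 shapes membranes in endocytosis, and ITM2B (BRI2) binds APP and interferes with its cleavage.

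The coding ends of the 3 family members are shown because they hold the sorting motif that the adaptors bind, and because they differ in sequence between the members. Each line runs from 26 codons before the sorting motif to the stop codon, with the codons of the motif in capitals. The sequences are from the GENCODE 29 transcripts, with exons joined and introns left out. The coordinates are the outer bounds on GRCh38 and so span introns.
APP (chr21:25881670-25891736, minus strand): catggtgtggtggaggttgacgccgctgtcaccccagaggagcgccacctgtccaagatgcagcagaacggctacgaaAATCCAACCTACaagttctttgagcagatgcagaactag
APLP2 (chr11:130142060-130143448, plus strand): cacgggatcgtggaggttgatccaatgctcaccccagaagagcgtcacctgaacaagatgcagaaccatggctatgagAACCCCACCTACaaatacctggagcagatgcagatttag
APLP1 (chr19:35879203-35879441, plus strand): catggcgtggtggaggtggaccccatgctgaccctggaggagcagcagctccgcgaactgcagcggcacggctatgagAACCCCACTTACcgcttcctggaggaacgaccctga
Aligned at the motif, APP and APLP2 were identical at 85 of 114 bases (74.6%), and APP and APLP1 at 73 of 111 bases (65.8%). Over the whole coding sequences of these transcripts, the longest identical run was 17 bases between APP and APLP2 and 11 bases between APP and APLP1. The read counts themselves were made on GRCh37, where APP lies at chr21:27252861-27543446 on the minus strand, APLP1 at chr19:36358801-36370693 and APLP2 at chr11:129939732-130014699, both on the plus strand.

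The libraries held 8866994 to 57937653 assigned read pairs, with the third experiment the shallowest (8866994 to 13332413). Exogenous ABCC1 had 51035 to 594404 counts in the ABCC1 libraries and 0 to 15 in the Puro libraries, which matched the labels in all 18 libraries. ABCC1 replicate 3 of the first experiment stood apart from the other libraries of its group, with a chi-square per degree of freedom over genes of 21.5 and 16.1 against replicates 1 and 2, which gave 1.48 between them. Pairs of libraries within the other groups gave 2.11 to 22.4. Of 12 markers of noradrenergic neuroblastoma, 12 lay above 3 times the background in the first experiment and 11 in the others. The background was taken as the counts per kb of exon, scaled to a common library total as CPM (CPM per kb), on 372 olfactory receptor genes, which neuroblastoma cells should not transcribe. It was 0.00380 to 0.00525 in the first experiment, 0.125 to 0.762 in the second and 1.03 to 1.79 in the third. Markers of glia, epithelium and blood reached 3 times this background in none of the groups of the second and the third experiments. In the first, where the background was near 0, 3 of 6 glial markers did so in Puro and 5 in ABCC1, and 2 of 6 epithelial and 1 of 6 blood markers in both lines, with summed levels of 3.49 to 4.06, 0.758 to 1.34 and 0.187 to 0.524 CPM. Of 6 fibroblast markers, 5 did so in the first experiment and 1 to 3 in the others, at a summed level of 80.0 to 211 CPM against 8513 to 14971 CPM for the neuroblastoma markers. The lines differed in these sums in the first experiment, with 133 to 137 CPM in Puro and 206 to 211 CPM in ABCC1 for fibroblast markers, and 13969 to 14971 and 12068 to 13308 CPM for neuroblastoma markers. In the third experiment the fibroblast sums lay the other way, at 131 to 150 CPM in Puro and 97.8 to 125 CPM in ABCC1. The part of these shifts in the results was not tested.

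Endogenous APP stood at a far higher level in the second and the third experiments than in the first. Values are counts scaled to a common library size with edgeR's TMM method (CPM), set within each experiment. In the first experiment it had 227, 217 and 226 CPM in Puro replicates 1, 2 and 3, and 204, 201 and 207 CPM in ABCC1. The second experiment had 2234, 2959 and 2593 CPM in Puro and 3316, 2719 and 2487 CPM in ABCC1. In the third experiment the values were 3107, 4843 and 2987 CPM in Puro and 2845, 3387 and 3178 CPM in ABCC1. All 12 libraries of the second and the third experiments lay above all 6 of the first. In bulk RNA, more cells with a transcript and more transcript per cell cannot be told apart. On group means APP was 11.6-fold higher in the second than in the first experiment in Puro and 13.9-fold in ABCC1, and 16.3-fold and 15.4-fold higher in the third. Among the genes at 10 CPM or more in both experiments, these folds ranked 18th of 9012, 12th of 9210, 10th of 9361 and 8th of 9450. With library totals in place of TMM the folds were 12.5, 12.8, 16.8 and 14.5.

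Its homologs did not follow. APLP2, the most abundant of the family in the first experiment, had 316 ± 3.04 CPM in Puro (SD, n = 3) there, 186 ± 31.1 CPM in the second experiment and 266 ± 65.5 CPM in the third. APLP1, which is expressed mainly in neurons, had 107 ± 5.20, 58.9 ± 7.75 and 84.8 ± 11.8 CPM in Puro in the same order. On library totals both homologs lay at 0.590- to 0.870-fold of the first experiment in every later group. The codon-optimized APP, counted on its own 2313-base reference, stayed at 265 ± 4.74, 244 ± 14.6 and 331 ± 60.8 CPM of the library total in Puro, and at 228 ± 19.7, 228 ± 21.8 and 251 ± 9.45 CPM in ABCC1.

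The ratio of 2 genes within a library needs no scaling between libraries. Per kb of exon, APP was at 0.726 to 0.845 of APLP2 over the 6 libraries of the first experiment, at 13.8 to 17.4 times APLP2 in the second and at 13.7 to 16.6 times in the third. Against APLP1 the ratio was 1.13 to 1.38, then 21.5 to 29.9, then 21.3 to 28.4. Against the exogenous APP it was 0.298 to 0.347, then 3.79 to 4.51, then 4.06 to 4.46. The ratio of APLP2 to APLP1 showed no such step, with geometric means of 1.58, 1.62 and 1.58 in the 3 experiments. The step belonged to APP and not to its homologs on this scale. The first experiment was made with a TruSeq library kit on a NextSeq instrument and the other experiments with a SMARTer stranded total RNA kit on a NovaSeq instrument, so kit, instrument and experiment cannot be told apart and no test was made. For the first experiment the labels name both kits, TruSeq as the library kit and SMARTer in the extract protocol.

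**Figure D1:**
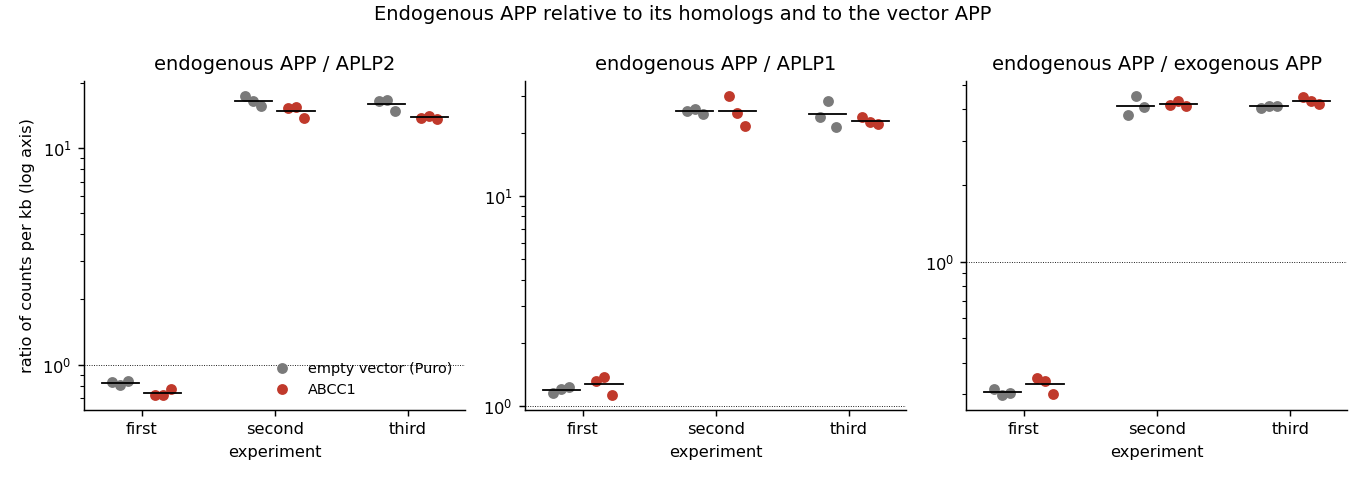
Endogenous APP divided by APLP2, by APLP1 and by the exogenous APP, as counts per kb of exon within each library, on log axes for the 3 experiments. Points are libraries, grey for Puro and red for ABCC1, short black lines are group means, and the dotted line marks equal levels. APP stood at 0.726 to 0.845 of APLP2 in the first experiment and at 13.7 times or more in every library of the other experiments.

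Between the second and the third experiments, which shared kit and instrument, the ratio of APP to APLP2 did not differ beyond the spread of the libraries. The difference on the log2 scale was −0.07 (12 libraries, exact two-sided permutation test within lines, p = 0.125, where the smallest possible p was 0.005). For APP to APLP1 it was −0.10 (p = 0.295 by the same exact test), and for APP to exogenous APP 0.02 (p = 0.715). ITM2B was the exception, as APLP2 to ITM2B was 1.29-fold higher in the third experiment (exact permutation p = 0.005, adjusted over 6 ratios p = 0.03). APP to ITM2B was 1.23-fold higher (exact permutation p = 0.025, adjusted p = 0.075). The 6 ratios were APP to APLP2, APP to APLP1, APP to exogenous APP, APP to ITM2B, APLP2 to APLP1 and APLP2 to ITM2B, and apart from the first pair they were chosen after the values were seen.

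Within each experiment, APP was lower relative to APLP2 in the ABCC1-overexpressing cells. In the first experiment the ratio was 0.835, 0.802 and 0.845 in Puro replicates 1, 2 and 3 and 0.726, 0.726 and 0.772 in ABCC1. The second had 17.4, 16.5 and 15.5 in Puro and 15.4, 15.4 and 13.8 in ABCC1. In the third it was 16.5, 16.6 and 14.8 in Puro and 13.8, 14.1 and 13.7 in ABCC1. Every Puro library lay above every ABCC1 library of its own experiment, although in the second the nearest values were 15.5 and 15.4. The difference was −0.16, −0.15 and −0.20 on the log2 scale, each with an exact permutation p = 0.1, the smallest that 3 against 3 allows. Over the 3 experiments together it was −0.17, a ratio 0.889-fold that of Puro (18 libraries, exact two-sided permutation within experiments, p = 0.00025, the smallest possible, adjusted over the 6 ratios p = 0.0015). This comparison of lines was added after the values were seen. It does not say which of the 2 genes differed. For single genes on the TMM scale, the lines did not overlap, in either direction, for 50.4%, 29.8% and 19.5% of genes in the 3 experiments. In all 3, 6.69% of 16689 genes had every ABCC1 library above every Puro library. The share among ratios of any 2 genes was not counted.

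**Figure D2:**
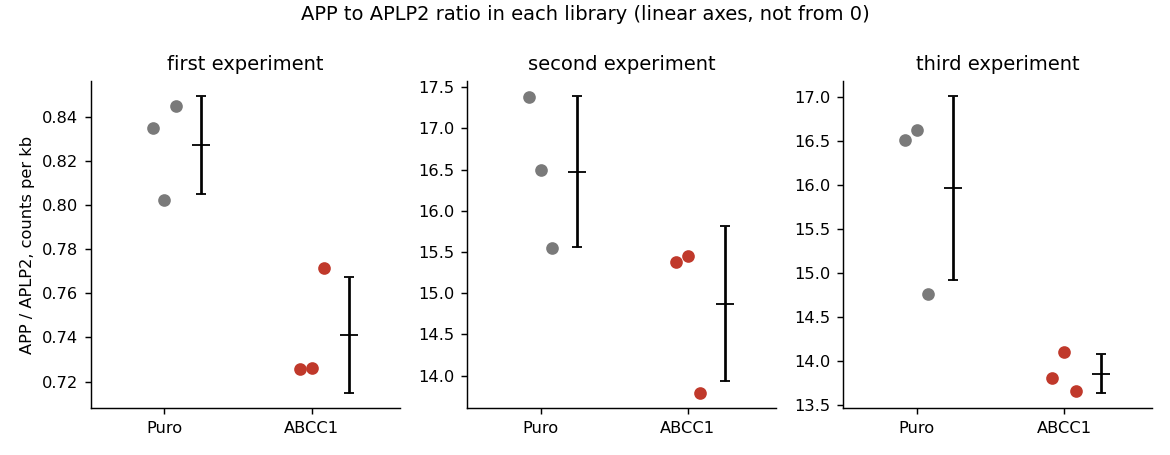
Ratio of APP to APLP2, as counts per kb of exon, in each library of the 3 experiments, on linear axes that do not start at 0. Grey points are Puro libraries and red points ABCC1 libraries, and the bars give the mean and SD of 3. The ABCC1 libraries lie lower in each panel, with the closest approach in the second experiment, at 15.4 against 15.5.

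None of the other ratios separated the libraries of the lines in all 3 experiments. On the log2 scale APLP2 to ITM2B differed by 0.17 and APLP2 to APLP1 by 0.16, near the size for APP to APLP2. APLP2 to ITM2B was 1.13-fold higher in ABCC1 (18 libraries, exact permutation p = 0.00525, adjusted p = 0.0158), and APLP2 to APLP1 was 1.12-fold higher (exact permutation p = 0.017, adjusted p = 0.034). APP to APLP1 differed by −0.01 on the log2 scale (exact permutation p = 0.937), APP to ITM2B by 0.00 (exact permutation p = 0.986) and APP to exogenous APP by 0.07 (exact permutation p = 0.0603, adjusted p = 0.0904). The 3 ratios with APLP2 were thus those that passed, and these share APLP2's counts.

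For each gene on its own, edgeR's quasi-likelihood test compared the lines within an experiment, with p-values adjusted over all genes tested and a gene called at an adjusted p of at most 0.05. In the first experiment 37.6% of 16995 genes were called, 17.9% higher and 19.7% lower in ABCC1, and 4 of the 10 genes were called. The share is near that of all genes. The libraries of the lines did not overlap for 5 of the 10 genes, against 50.4% of all genes. The changes were small, with a median absolute log2FC of 0.12 over the 10 genes against 0.19 over all genes tested. APP fell by 0.13 ± 0.04 (log2FC ± SE, adjusted p = 0.0207), and its 3 ABCC1 libraries (201 to 207 CPM) lay below its 3 Puro libraries (217 to 227 CPM). The exogenous APP fell by 0.23 ± 0.06 in the same libraries (unadjusted p = 0.00237). APLP1 had 113, 103 and 105 CPM in Puro and 89.1, 83.8 and 105 CPM in ABCC1, groups that overlapped, and a log2FC of −0.21 ± 0.08 (adjusted p = 0.057). APLP2 had a log2FC of 0.03 ± 0.04 (adjusted p = 0.57).

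Of the X11 adaptor genes, 1 was called in that experiment, and the difference between them was not tested. APBA1, encoding a neuronal adaptor of the APP tail, had 24.7, 26.7 and 26.6 CPM in Puro and 22.6, 21.5 and 21.3 CPM in ABCC1, and fell by 0.25 ± 0.06 (adjusted p = 0.00644). APBA2 was at 125 to 132 CPM in Puro and 132 to 142 CPM in ABCC1, with a log2FC of 0.09 ± 0.04 (adjusted p = 0.127). The Fe65 genes encode adaptors that also join APP fragments in nuclear complexes. APBB2 had 58.0, 60.5 and 54.4 CPM in Puro and 61.1, 65.9 and 68.4 CPM in ABCC1 and rose by 0.18 ± 0.06 (adjusted p = 0.0316). APBB1 was at 50.3, 49.5 and 50.2 CPM in Puro and 52.0, 52.0 and 57.3 CPM in ABCC1, with a log2FC of 0.11 ± 0.05 (adjusted p = 0.134). Of the partners in membrane traffic, ITM2B fell by 0.14 ± 0.04 (adjusted p = 0.0183), from 288, 274 and 280 CPM in Puro to 254, 246 and 263 CPM. SORL1 had a log2FC of −0.06 ± 0.05 (adjusted p = 0.429) and BIN1 one of 0.05 ± 0.05 (adjusted p = 0.509), and both overlapped between lines.

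Only the APBA1 call stood without any 1 of the 6 libraries. APP and ITM2B were no longer called without Puro replicate 1, Puro replicate 3, ABCC1 replicate 1 or ABCC1 replicate 2, at adjusted p = 0.0592 to 0.0866, and APBB2 was not without Puro replicate 1, Puro replicate 3 or ABCC1 replicate 2, at adjusted p = 0.0745 to 0.165. Without ABCC1 replicate 3, APLP1 was called as lower (log2FC −0.31, adjusted p = 6.25e-06). The number of calls among the 10 genes ran from 1 to 5 over these fits. With the replicate number as a block, APP and APBB2 were not called (adjusted p = 0.063 and 0.0626) and APLP1 was called as lower (log2FC −0.21, adjusted p = 0.0442), beside APBA1 and ITM2B. With a spread shared by all 18 libraries none of the 10 genes was called, APBA1 included (log2FC −0.15, adjusted p = 0.894), and 1525 of 46225 genes were.

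In the second experiment 1.7% of 34091 genes were called and none of the 10 genes was, in edgeR's test. At an unadjusted p under 0.05 there were 2, APBB1 and APBB2, and DESeq2 called 1, APBB1. The median log2FC was −0.19 over all genes and 0.25 over the 10 genes, and with library totals in place of TMM these medians were −0.39 and 0.03. Over genes at 10 CPM or more the median of the 10 genes was −0.01. APBB1 had 19.7, 19.7 and 19.6 CPM in Puro and 30.9, 24.2 and 25.8 CPM in ABCC1, a log2FC of 0.46 ± 0.16 (adjusted p = 0.111). APBB2 had 26.3, 33.5 and 29.8 CPM in Puro and 40.5, 35.8 and 36.2 CPM in ABCC1, with a log2FC of 0.33 ± 0.15 (adjusted p = 0.225). APBA2, at 77.6 to 80.8 CPM in Puro and 85.6 to 106 CPM in ABCC1, had a log2FC of 0.25 ± 0.16 (adjusted p = 0.365). The groups of these 3 genes did not overlap, against 29.8% of all genes, so that the share is near that of all genes. Endogenous APP had a log2FC of 0.13 ± 0.21 (adjusted p = 0.744), and its sign turned in 3 of 16 alternatives. The Puro libraries had more background than the ABCC1 libraries, 0.520 to 0.762 against 0.125 to 0.426 CPM per kb, and with the background as a covariate none of the 10 genes was called, in a fit that called 9 of 34091 genes in all.

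In the third experiment 2.8% of 36509 genes were called, and again none of the 10 genes. None had an unadjusted p under 0.05, and DESeq2 called 0. The groups did not overlap for 1 of the 10 genes, against 19.5% of all genes. This was APBB2, at 56.7, 56.0 and 46.6 CPM in Puro and 61.0, 57.6 and 61.7 CPM in ABCC1 (log2FC 0.18 ± 0.16, adjusted p = 0.661). ITM2B had 91.9, 124 and 94.2 CPM in Puro and 73.5, 93.0 and 96.0 CPM in ABCC1, groups that overlapped, with a log2FC of −0.24 ± 0.18 (adjusted p = 0.559). With library totals in place of TMM, with genes at 10 CPM or more only, or with the background as a covariate, ITM2B was called as lower (log2FC −0.37, −0.33 and −0.65). APP had a log2FC of −0.22 ± 0.26 (adjusted p = 0.747) and APLP2 one of −0.01 ± 0.20 (adjusted p = 0.993). Without Puro replicate 2, the library with 4843 CPM, the value of APP was 0.05 (adjusted p = 0.913). APBB1 had a log2FC of 0.15, which turned to −0.31 with the background as a covariate and to −0.0013 without ABCC1 replicate 3, and was called in none of these fits.

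**Figure D3:**
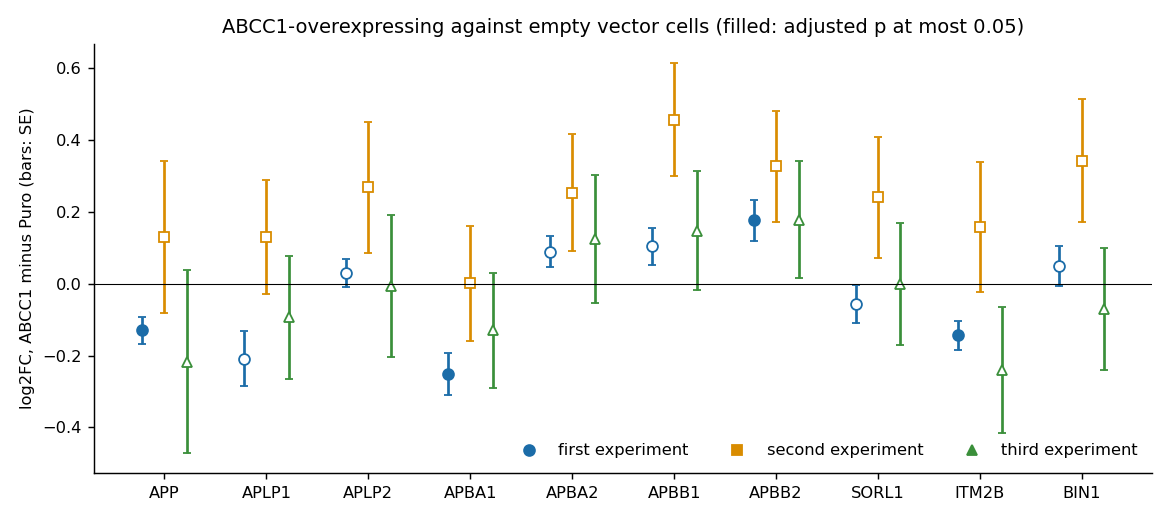
Log2FC of ABCC1 against Puro for the 10 genes in the first (blue circles), second (orange squares) and the third (green triangles) experiment, with the SE as bars. Filled symbols passed an adjusted p of at most 0.05. The first experiment has small errors and 4 filled symbols, and APBB1 and APBB2 are the genes with a log2FC above 0.1 in all 3 experiments, although APBB1 in the third turned to −0.31 with the background as a covariate.

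On the TMM scale APBB2 was thus higher in every ABCC1 library than in every Puro library of its experiment, in all 3 experiments, as were 6.69% of the 16689 genes tested in all of them. A joint fit of all 18 libraries, with the experiment as a term, called it as higher by 0.29 ± 0.08 (adjusted p = 0.0121) and its homolog APBB1 by 0.30 ± 0.09 (adjusted p = 0.0193), 2 of 10 genes against 12.4% of 46225 genes. These 2 calls depended on the method, the scale and the filter. They were kept by DESeq2 (log2FC 0.21 for APBB1 and 0.20 for APBB2) and with the replicate block, 2 of the 6 alternatives. They were lost with RLE size factors (adjusted p = 0.0716 and 0.0502) and with at least 10 counts in every library (adjusted p = 0.155 and 0.114). Library totals lost them too (log2FC 0.13 for APBB1 and 0.13 for APBB2, adjusted p = 0.203 and 0.186). So did genes at 10 CPM or more (log2FC 0.10 and 0.09, adjusted p = 0.218 and 0.169). The sign stayed positive in all 6 alternatives. Background equalled 26.8% of the level of APBB2 per kb in Puro and 9.92% in ABCC1 in the second experiment, and 40.1% and 25.6% in the third, and in the first it was 0.108% or less. With the background as a covariate APBB2 had a log2FC of 0.15 in the second experiment (adjusted p = 0.976) and 0.14 in the third (adjusted p = 0.846), and APBB1 one of 0.25 (adjusted p = 0.96) and −0.31 (adjusted p = 0.6). The effect of ABCC1 differed between the experiments for 1.19% of the same genes, and for none of the 10 (edgeR's test of the interaction, lowest adjusted p = 0.852). None had an unadjusted p under 0.05, and DESeq2 called 0.

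The order of the 10 genes by level per kb of exon held in much the same form apart from APP. In the first experiment ITM2B led in Puro at 111 ± 2.75 CPM per kb (SD, n = 3), followed by APLP2 at 42.5 ± 0.409, APP at 35.2 ± 0.850, APLP1 at 29.3 ± 1.42 and APBA2 at 18.7 ± 0.555. BIN1 (10.1 ± 0.712) and APBB1 (9.63 ± 0.0790) did not differ beyond their spread, and APBB2 (4.45 ± 0.236), APBA1 (3.98 ± 0.166) and SORL1 (3.92 ± 0.236) closed the order, the last pair within their spread. In the second and the third experiments APP led at 409 ± 57.1 and 574 ± 164 CPM per kb in Puro. ITM2B and APLP2 came next, and in the third experiment they lay within their spread in both lines. The 4 lowest genes were again APBB1, APBA1, SORL1 and APBB2, of which SORL1 and APBB2 lay within their spread in Puro of both experiments. In Puro of the third experiment the background equalled 28.8% of the level of APBB1, 31.6% of APBA1, 38.3% of SORL1 and 40.1% of APBB2. It equalled 0.286% of APP.

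**Figure D4:**
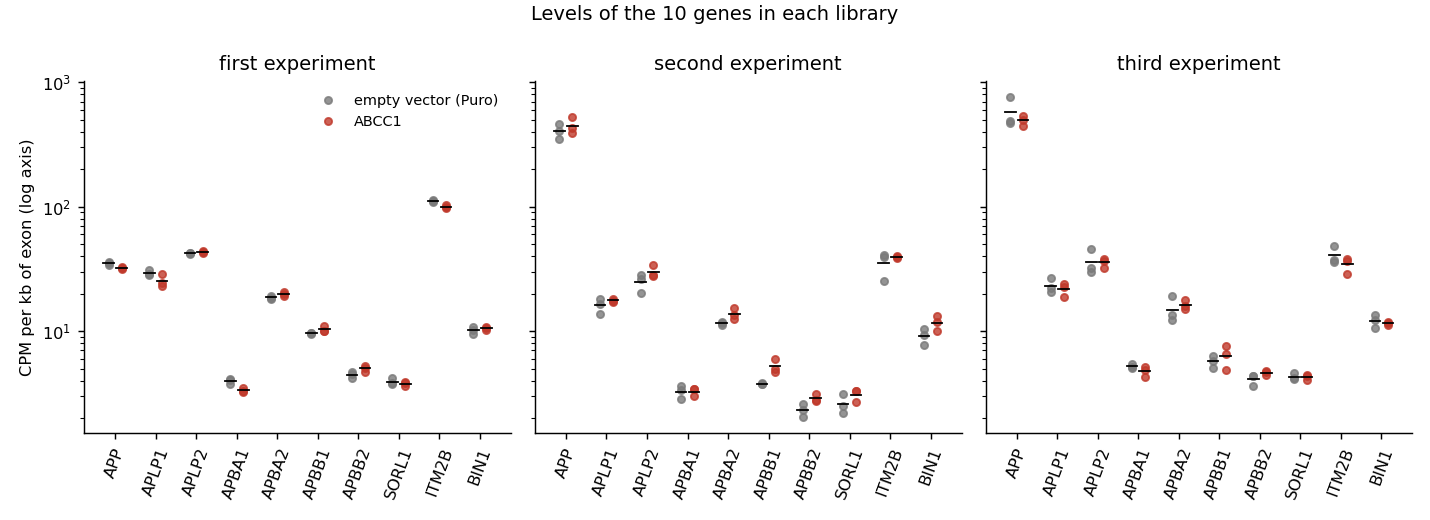
Level of each gene in CPM per kb of exon, on a log axis, in the 3 experiments. Points are libraries, grey for Puro and red for ABCC1, and black lines are means of 3. APP moves from rank 3, at 35.2 in Puro, to rank 1 at 409 and 574, while APBB2, APBA1 and SORL1 stay the lowest or among the lowest.

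ITM2B, which encodes a membrane protein whose own mutations cause familial dementias, lay the lowest of the 10 genes relative to the first experiment in both lines. Its mean CPM was 0.319-fold of the first experiment in the second and 0.368-fold in the third in Puro, and 0.394-fold and 0.344-fold in ABCC1. The medians over genes at 10 CPM or more were −0.71, −0.50, −0.46 and −0.36 on the log2 scale in the same order. Kit and experiment cannot be told apart here either.

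When the third experiment was tested against the second within a line, the direction of most of the 10 genes depended on the scale. In Puro 19.4% of 37283 genes were called and none of the 10 (1 at an unadjusted p under 0.05, ITM2B, which DESeq2 called). In ABCC1 32.4% of 34922 genes were called and 7 of the 10, all lower on the TMM scale, namely APP, APLP1, APLP2, APBA2, APBB1, ITM2B and BIN1, of which all but ITM2B had the opposite sign with library totals. APP had a log2FC of −0.56 ± 0.15 (adjusted p = 0.00894) on the TMM scale and 0.19 with library totals, and the exogenous APP one of −0.60 ± 0.13 on the TMM scale. The median of all genes was 0.40 in the same fit, and 1.14 with library totals. On that scale 9 of the 10 genes had the opposite sign, as APBB2 did at 0.72. Among the called genes 37.6% were higher on the TMM scale and 89.0% with library totals. ITM2B alone kept 1 sign in ABCC1 under all 13 alternatives, from −1.07 to −0.16, and was called in 12 (main log2FC −0.90 ± 0.12, adjusted p = 2.17e-05).

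**Figure D5:**
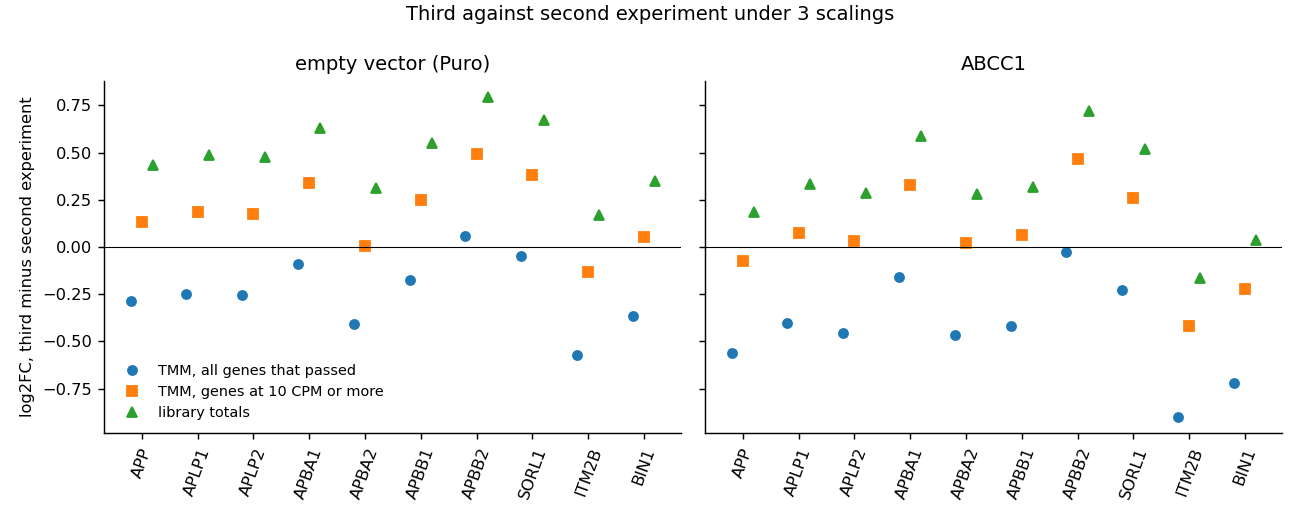
Log2FC of the third against the second experiment for each gene, in Puro and in ABCC1, under 3 scalings: TMM over all genes that passed the filter (circles), TMM over genes at 10 CPM or more (squares) and library totals (triangles). The scalings move all genes together, and in ABCC1 ITM2B is the gene below 0 under all 3.

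Over the 18 libraries, with each gene centred on its mean in each experiment (log2 CPM), the genes most like APP were SSRP1 (Pearson r = 0.95), SRRT (r = 0.95) and HMGA1 (r = 0.94), among 46224 genes. Of its family, APLP2 had r = 0.87 and APLP1 r = 0.78, and the other members ran from 0.43 (APBB2) to 0.83 (ITM2B). These values share library composition and are given as a description.

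Other genes of APP traffic were counted in lists by function. Among 11 further genes of the X11, Fe65, BRI, amphiphysin and VPS10 families, 8 could be tested in the first experiment and 5 were lower, 0 higher, where 19.7% of all genes were lower and 17.9% higher. The receptors SORCS3 and SORCS2 were among these, with log2FC of −3.15 ± 0.36 (adjusted p = 8e-05) and −1.54 ± 0.11 (adjusted p = 2.33e-06), as was ITM2C, the homolog of ITM2B, at −0.55 ± 0.04. SORCS3 was low throughout that experiment, at 0.644 to 0.881 CPM in Puro. SORCS2 was lower again in the third experiment, at 27.8, 28.4 and 33.9 CPM in Puro and 23.7, 16.2 and 19.6 CPM in ABCC1 (log2FC −0.60 ± 0.17, adjusted p = 0.0262). In the second it had a log2FC of −0.77 ± 0.22 (adjusted p = 0.0624). Background equalled 34.5% of the level of SORCS2 per kb in Puro and 37.8% in ABCC1 in the third experiment, and was itself higher in Puro, at a mean of 1.64 against 1.19 CPM per kb. Its part in the SORCS2 value was not tested.

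Of 11 genes of retromer and its sorting nexins, which carry SORL1 and APP from endosomes back to the Golgi, 1 was higher (VPS26B, 0.15 ± 0.04) and 2 lower (SNX5, −0.18 ± 0.05; SNX3, −0.17 ± 0.06) in the first experiment, 3 of 11 called against 37.6% of all genes, and none was called in the later experiments. Of 6 lipoprotein receptor genes, 2 were higher and 4 lower in the first experiment, where 37.6% of all genes were called. There LRP2 fell by 0.62 ± 0.13, while the reelin receptor gene LRP8 rose by 0.61 ± 0.05. Background equalled 75.5% and 62.4% of the level of LRP2 in Puro and ABCC1 in the second experiment, and 74.4% and 63.4% in the third. It was itself higher in Puro, and its part in the LRP2 values was not tested. In the second and the third experiments LRP8 had log2FC of 0.55 ± 0.15 (adjusted p = 0.0587) and 0.45 ± 0.16 (adjusted p = 0.124).

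Among 15 genes of clathrin adaptors and endocytosis, 2 were higher and 3 lower in the first experiment, 5 of 15 called against 37.6% of all genes. EHD1, which recycles receptors from endosomes, was higher in the first (0.23 ± 0.06, adjusted p = 0.0141) and the third experiments (0.67 ± 0.17, adjusted p = 0.00971), with 49.1, 52.3 and 50.6 CPM in Puro and 67.5, 88.5 and 85.7 CPM in ABCC1 in the latter. In the second its log2FC was 0.56 ± 0.16 (adjusted p = 0.0599). NUMB rose by 0.30 ± 0.04 and PICALM fell by 0.28 ± 0.06 in the first experiment.

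Of 15 other genes whose proteins bind the APP tail, 14 could be tested in the first experiment. Of these 7 were lower and 0 higher, against 19.7% lower and 17.9% higher among all genes. Their median log2FC was −0.13, against 0.01 for all genes. The list did not lean this way in the second experiment, with a median of 0.14 and 0 called. In the third the median was −0.03 and 1 was called, as lower. All genes had medians of −0.19 and −0.09 there. In the first experiment DAB1 fell by 1.20 ± 0.12, NAE1 by 0.40 ± 0.07 and MAPK8IP1 by 0.39 ± 0.10. NAE1, a subunit of the NEDD8-activating enzyme that was found as an APP-binding protein, was lower in the third experiment as well (−0.57 ± 0.16, adjusted p = 0.0338), with 37.8, 58.9 and 44.9 CPM in Puro and 29.8, 34.6 and 30.9 CPM in ABCC1. In the second its log2FC was −0.31 ± 0.18 (adjusted p = 0.314). Background equalled 16.76% and 17.97% of its level in Puro and ABCC1 in the third. None of the genes in these lists was called with 1 sign in all 3 experiments tested separately. The joint fit of 18 libraries, which called 12.4% of all genes, gave log2FC of −0.89 ± 0.12 for SORCS2 (adjusted p = 2.85e-07), 0.61 ± 0.08 for LRP8 (adjusted p = 7.08e-07), 0.55 ± 0.09 for EHD1 (adjusted p = 1.59e-05) and 0.44 ± 0.09 for NUMB (adjusted p = 0.000193). Of the other genes named above, it called ITM2C, LRP2, DAB1 and NAE1 as lower and VPS26B as higher. It did not call SORCS3, SNX3, SNX5, PICALM or MAPK8IP1. By list it called 1 higher and 4 lower of 11 X11, Fe65, BRI, amphiphysin and VPS10 genes, and 3 higher and 0 lower of 11 retromer genes. It called 2 higher and 2 lower of 6 lipoprotein receptor genes, 3 and 0 of 15 clathrin genes, and 2 and 2 of 15 tail binders. Among all genes 8.72% were higher and 3.72% lower. These values of the listed genes were not recomputed on the other scales.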

How the data were processed

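RNA of BE(2)-m17 cells was sequenced in 3 experiments of 6 libraries. Per the labels and the file headers, the authors used bcl2fastq 2.18, aligned to GRCh37 with vector sequences added with STAR 2.7.3a, and counted read pairs on exons with featureCounts (Subread 2.0.0), with no strand setting and without reads that map to several places. The deposited values are raw counts per gene, over 57905 Ensembl genes, 92 spike-in controls (not used here) and 6 vector sequences. Because counting ignored strand, the 6.35% of APLP1 exon bases shared with NPHS1, 6.09% of APBA1 with an unnamed gene without counts, and 1.26% or less of APP and APBB2 can hold reads of either gene. Symbols came from a name table that matched 51996 IDs.

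Groups were taken from the sample titles. The main test was edgeR's robust quasi-likelihood test (edgeR 4.0.16 in R 4.3.3) after TMM and filterByExpr at a minimum count of 10. It was run, with p-values adjusted over all Ensembl genes that passed (Benjamini-Hochberg), within each experiment, over all 18 libraries, and between the second and the third experiments. Tests are two-sided. Ratios of counts per kb were compared with exact permutation tests of library labels. Alternatives were RLE, DESeq2 1.42.0, limma-voom (limma 3.58.1), other filters, a shared spread, a replicate block, a background covariate and leaving out each library, and, chosen after seeing the data, library totals, genes at 10 CPM or more, and all alternatives of the ratio between lines. Methods were tested on simulated data. The 10 genes, the lists and the tests were chosen with earlier results of these data known. All 10 genes were named in every comparison, with up to 3 called genes of largest absolute log2FC per list and experiment, any gene called with 1 sign in all 3 experiments, and the 3 genes most correlated with APP. Some results under this rule are not reported here. Tail sequences came from GENCODE 29. Libraries of a group differed by more than sampling noise (chi-square per degree of freedom 1.48 to 22.4). Depth was 8866994 to 57937653 assigned read pairs, and counting intervals would cover counting error only.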

Additional observations from a re-analysis of the deposited data

How the results depend on the processing

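Of 958 recomputed values, 853 kept their side of the threshold with no change of sign of a called value, although 77 of these had the other sign with neither value called. In 24 the sign changed and the gene was called in at least 1 of the fits. In the first experiment the number of the 10 genes called was 4, and 0 with a spread shared by all 18 libraries (3.3% of all genes), 5 with DESeq2 (32.6%), 3 with the replicate block (31.5%) and 1 to 5 without 1 library. In the second experiment it was 0, and 1 with DESeq2 or the shared spread (APBB1), against 8.0% and 10.6% of all genes. In the third it was 0, and 1 with library totals, with genes at 10 CPM or more or with the background covariate (ITM2B), against 4.79%, 18.4% and 2.16%. It stayed 0 without any 1 library in both. For the effect common to the experiments it was 2, and 0 with RLE size factors (12.2% of all genes), 1 with library totals (APBA1, against 12.5%) and 4 with genes at 10 CPM or more (APP, APLP1, APBA1 and ITM2B, against 39.8%), where APLP1 turned from 0.01 to −0.19, as it did to −0.17 with at least 10 counts in every library. Between the third and second experiments it was 0 in Puro, and 1 with DESeq2 or the block (18.7% and 24.1% of all genes), 6 with library totals (51.2%), 2 with genes at 10 CPM or more (49.5%) and 0 to 2 without 1 library. In ABCC1 it was 7, and 4 with at least 10 counts in every library (48.1%) and 5 to 8 without 1 library. Among genes called on either scale, the signs turned with library totals in Puro for APLP1 (0.48), APLP2 (0.47), APBA1 (0.63), APBB1 (0.55) and SORL1 (0.67), and in ABCC1 for APP (0.19), APLP1 (0.33), APLP2 (0.29), APBA1 (0.59), APBA2 (0.28), APBB1 (0.32), APBB2 (0.72), SORL1 (0.52) and BIN1 (0.035). In Puro the uncalled APP (0.44), APBA2 (0.31), ITM2B (0.17) and BIN1 (0.35) turned as well. With genes at 10 CPM or more the signs of called genes turned in Puro for SORL1 (0.38), beside 7 uncalled genes, and in ABCC1 for APLP1 (0.077), APLP2 (0.030), APBA1 (0.33), APBA2 (0.021), APBB1 (0.061), APBB2 (0.46) and SORL1 (0.26). The median over all genes moved with these scales, from 0.18 to 0.90 and 0.05 in Puro and from 0.40 to 1.14 and −7.84e-05 in ABCC1. The cause of the other changes was not tested.

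The ratio of APP to APLP2 between the third and second experiments stayed at −0.05 in Puro alone, −0.10 in ABCC1 alone and −0.04 with background subtracted, and none of these passed the threshold. Its difference between lines, −0.17, ran from −0.19 to −0.15 without 1 library (highest exact permutation p = 0.001) and was −0.18 with background subtracted. The labels do not say that a replicate number marks a shared week. Correlations could not settle this, as deviations from a mean of 3 libraries are tied to each other. Same-numbered libraries had mean correlations of −0.04, −0.06 and 0.04 within the 3 experiments. Between the second and the third these were 0.06 in Puro and −0.11 in ABCC1. Within the experiments 0, 1 and 4 of 6 libraries correlated best with their own number, and between them 4 in Puro and 0 in ABCC1. With the replicate block, APP and APBB2 in the first experiment had adjusted p = 0.063 and 0.0626, and APLP1 0.0442. Among the 10 genes, depth and background limit APBB1, APBB2, APBA1 and SORL1 most, in the third experiment. Some genes of the lists by function had larger shares of background there, such as LRP2, at 74.4% of its level in Puro.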
